A study of Mus musculus with 31 samples.

Results

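Control embryoid bodies differed widely in RNA of alpha-fetoprotein (Afp) at day 11, and the arrays with the most Afp were set against those with the least. The 9 control arrays were ranked by their measured Afp level, read from probe set 1416646_at, of the Afp probe sets the one brightest on average across the 31 arrays of the series. The 4 highest arrays (Afp-high, replicates 4, 8, 3 and 7) were compared with the 4 lowest (Afp-low, replicates 5, 1, 2 and 6). Replicate 9, the middle array, was left out, so that 8 of the 9 control embryoid bodies entered the comparison. Because the arrays were selected on a measured value, the difference between the sets is a description and carries no test. The tests given below were made in Nos3-/- arrays, which the ranking did not use.

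The series profiled induced pluripotent stem cells (iPSCs) and the embryoid bodies grown from them on Affymetrix arrays, with 1 array per sample. Every line, control or not, was made by Sendai virus reprogramming of tail-tip fibroblasts from adult male mice. Pluripotent cells (day 0) were kept on inactive embryonic fibroblast feeders, and embryoid bodies were formed by aggregation in microwells and left to differentiate spontaneously until day 11. There were 10 control arrays and 6 Nos3-/- arrays of pluripotent cells, and 9 control and 6 Nos3-/- arrays of embryoid bodies. Control cells were wild type and of the outbred CD1 stock, whereas Nos3-/- cells, which lack endothelial nitric oxide synthase, were of the strain B6.129P2-Nos3tm1unc/J, so genotype and strain cannot be told apart. The labels do not say whether the arrays of a group came from separate lines, separate cultures or repeats of 1 culture, so a p-value here measures no more than how far these arrays scatter, which can be technical.

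Afp is a carrier protein of fetal plasma, made by the visceral endoderm of the yolk sac and later by the fetal liver. In embryoid bodies, visceral endoderm forms an outer absorptive epithelium that takes up protein through receptors such as cubilin and secretes apolipoproteins, transthyretin and retinol-binding protein. Parietal endoderm, the other extraembryonic endoderm, lays down a thick basement membrane of laminin and type IV collagen. Transcription factors of the GATA, SOX17/SOX7, FOXA and HNF families set up and maintain both tissues.

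The deposited log2 intensities had array medians between 6.13 and 6.23, and the 9 control embryoid bodies had a median correlation with one another of 0.979 to 0.991, lowest for replicate 1. RNA quality was read from probe sets at both ends of a transcript: the Actb 3' minus 5' difference was 0.30 to 0.77 in the Afp-high and 0.33 to 0.51 in the Afp-low arrays, and that of Gapdh was 0.00 to 0.36 and 0.07 to 0.16. Both ranges overlapped between the sets. Where a gene had several probe sets the brightest on average was used, which gave 18194 genes. A difference of 1 on the log2 scale is a 2-fold difference in intensity, and the small number of arrays limits the precision of every value.

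In falling order of Afp, the level was 13.67, 12.85, 12.40 and 11.44 in the Afp-high arrays, 10.42 in the middle array, and 9.26, 8.14, 7.49 and 7.35 in the Afp-low arrays. The 9 arrays formed a graded series with no wide break, and the sets differ because the ranking made them differ. Their means were 12.59 ± 0.93 (SD, n = 4) and 8.06 ± 0.87 (SD, n = 4), a difference of 4.53 or 23.1-fold. Of the other 4 Afp probe sets, 1416645_a_at and 1436879_x_at put the 9 arrays in the same order, with differences of 4.04 and 4.36. The remaining probe sets, 1436880_at and 1436881_x_at, read 3.41 to 3.91 and 4.20 to 4.89 in the control embryoid bodies and differed by 0.02 and 0.15 between the sets; arrays ranked by them fall in another order.

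Outside the control embryoid bodies Afp was low. The 6 Nos3-/- embryoid bodies read 5.55, 6.34, 5.16, 7.84, 7.39 and 6.71 (replicates 1 to 6), with a median of 6.53, and only replicates 4 and 5 reached into the range of the Afp-low control arrays. At day 0, the control arrays ran from 4.74 to 6.38 with a median of 5.18, and the Nos3-/- arrays from 4.81 to 5.51 with a median of 5.07. Replicate 5 of the control day 0 arrays, at 6.38, was the only pluripotent sample above 5.51.

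**Figure D1:**
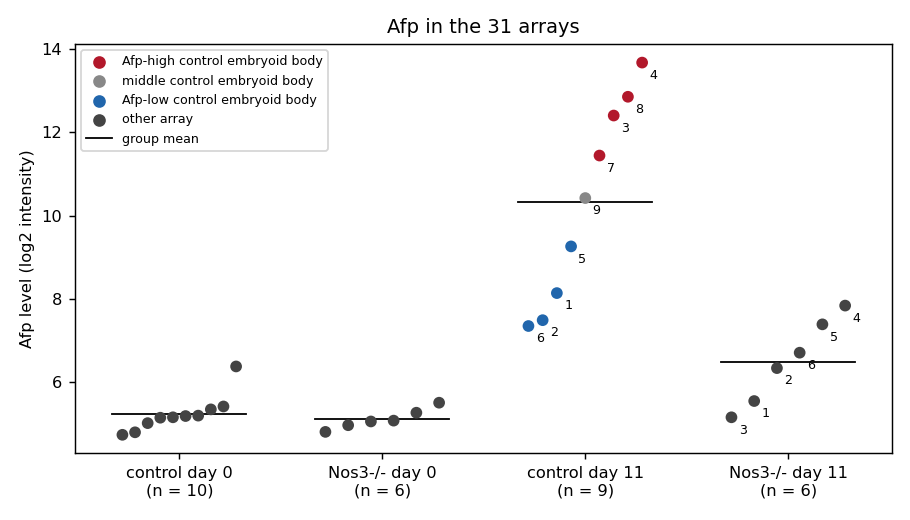
Afp level (log2 intensity, vertical axis) in each of the 31 arrays by group, with points for arrays, numbers for day 11 replicates and lines for group means. The control embryoid bodies spread from 7.35 to 13.67, and the Nos3-/- embryoid bodies lie between 5.16 and 7.84.

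Genes were called followers of Afp where all 4 Afp-high arrays lay above all 4 Afp-low arrays and the means differed by 1 or more, and opposers where the reverse held. Followers numbered 101 of 18193 genes (0.555%) and opposers 9 (0.0495%). Without the minimum difference, 516 genes (2.84%) lay wholly higher and 599 (3.29%) wholly lower in the Afp-high arrays, so genes lay wholly lower about as often as wholly higher, but few of them by 1 or more. The median difference was 1.515 among followers (1.005 to 4.48) and -1.30 among opposers (-1.505 to -1.095), against -0.025 over all genes. In bulk RNA, fewer cells of a type and less RNA per cell cannot be told apart, here and in all that follows. The gene lists used below held 28 of the followers and 1 of the opposers. The shares of all genes given here are those to set beside the list counts below.

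The count of followers depended on the edge of the sets and on single arrays. Just inside the minimum difference lay Flrt3 at 1.005, Slc16a12 at 1.01 and Ddah1 at 1.015, and just outside lay Tram2 at 0.99, Gata5 at 0.98 and Fhit at 0.975. Among opposers, Tlcd3b at -1.095 was the last inside, and Enpp3 at -0.97 and Lratd1 at -0.94 were the next outside. With the middle array joined to the lower arrays 55 genes followed Afp, all of them among the 101, and with it joined to the higher arrays 73 did, 69 of them shared. With 1 array left out fewer values must not overlap, while the means also shift, and the count ran from 91 to 208. It was 208 without replicate 7, 192 without replicate 1 and 170 without replicate 3, with 99, 92 and 101 of the followers kept, and 91 without replicate 4, with 73 kept. The opposers numbered 22 without replicate 7, 35 without replicate 1, 16 without replicate 3, 13 without replicate 4 and 19 without replicate 5.

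**Figure D2:**
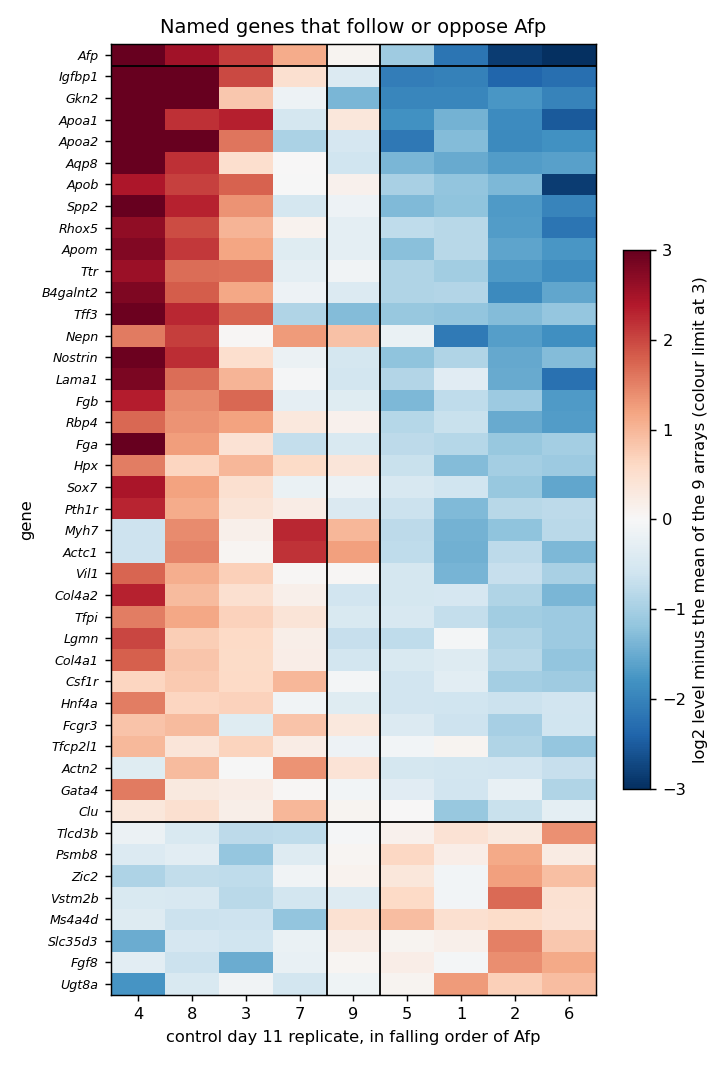
Level of Afp and of the named followers and opposers in the 9 control embryoid bodies, as log2 level minus the mean of the 9 arrays (colour, limited at 3), with arrays in falling order of Afp and lines around the middle array. Most followers fade from replicate 4 to replicate 7, while the sarcomere genes Myh7, Actc1 and Actn2 are highest in replicate 7.

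Promoter sequences are shown for Afp and for 4 of the followers with large differences, which were chosen because short motifs of liver and yolk-sac endoderm factors lie in them. Each runs from 250 bases before to 50 bases after the transcription start that RefSeq annotates on GRCm38.p6, and capitals mark matches, on either strand, to the letters given below. The Afp sequence is chr5:90490464-90490763 (plus strand), that of Igfbp1, an insulin-like growth factor binding protein of liver, is chr11:7197537-7197836 (plus strand), and that of Apoa1, the main protein of high-density lipoprotein, is chr9:46228380-46228679 (plus strand). The Apom sequence, of an apolipoprotein that binds lipid mediators, is chr17:35131752-35132051 (minus strand), and that of Fgb, the beta chain of fibrinogen, is chr3:83049814-83050113 (minus strand).
Afp: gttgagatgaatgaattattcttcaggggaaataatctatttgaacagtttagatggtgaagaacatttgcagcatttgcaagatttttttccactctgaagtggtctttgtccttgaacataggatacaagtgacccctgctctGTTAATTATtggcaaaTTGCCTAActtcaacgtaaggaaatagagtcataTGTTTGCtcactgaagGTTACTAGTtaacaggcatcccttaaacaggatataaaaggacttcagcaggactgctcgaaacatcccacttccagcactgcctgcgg
Igfbp1: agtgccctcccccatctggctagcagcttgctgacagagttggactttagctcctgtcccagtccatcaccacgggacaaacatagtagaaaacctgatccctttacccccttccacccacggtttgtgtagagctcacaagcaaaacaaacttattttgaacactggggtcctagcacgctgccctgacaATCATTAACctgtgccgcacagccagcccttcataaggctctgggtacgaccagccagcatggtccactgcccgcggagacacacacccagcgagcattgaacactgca
Apoa1: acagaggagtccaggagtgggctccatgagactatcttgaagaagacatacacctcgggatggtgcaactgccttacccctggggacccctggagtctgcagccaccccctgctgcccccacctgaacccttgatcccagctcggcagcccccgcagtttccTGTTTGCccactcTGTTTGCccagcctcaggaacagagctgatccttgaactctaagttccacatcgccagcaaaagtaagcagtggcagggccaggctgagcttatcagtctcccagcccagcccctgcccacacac
Apom: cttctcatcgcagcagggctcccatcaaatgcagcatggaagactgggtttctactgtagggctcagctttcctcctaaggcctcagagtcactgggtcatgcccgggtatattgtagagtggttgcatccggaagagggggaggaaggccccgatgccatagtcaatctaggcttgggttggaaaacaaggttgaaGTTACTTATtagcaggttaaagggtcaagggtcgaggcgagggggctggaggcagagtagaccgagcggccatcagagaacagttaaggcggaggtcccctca
Fgb: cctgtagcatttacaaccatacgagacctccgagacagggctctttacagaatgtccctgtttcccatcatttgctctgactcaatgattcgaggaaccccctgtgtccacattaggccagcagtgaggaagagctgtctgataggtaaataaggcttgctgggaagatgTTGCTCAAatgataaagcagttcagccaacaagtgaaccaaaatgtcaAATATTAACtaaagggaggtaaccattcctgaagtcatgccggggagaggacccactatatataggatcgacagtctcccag

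In the Afp window, matches to the HNF1 letters GTTANTNNT began 105 and 39 bases before the start, a match to the CEBP letters TTGCNNAA 89 bases before it, and a match to the FOXA letters TGTTTAC or TGTTTGC 55 bases before it. The HNF1 letters also matched 59 bases before the start of Igfbp1, 53 before that of Apom and 32 before that of Fgb. The FOXA letters matched 88 and 75 bases before the start of Apoa1. Of the followers, 83 had a promoter in the table, and the HNF1 letters occurred in 14 of them (16.9%), against 6.47% of the 14453 gene promoters of the same length. The FOXA letters occurred in 13 (15.7% against 6.77%), the CEBP letters in 13 (15.7% against 9.04%), the GATA letters AGATAA in 12 (14.5% against 8.13%) and the TATA letters TATAAA in 15 (18.1% against 9.87%; these are not in capitals). None of the 83 held the HNF4 letters CAAAGTCCA or CAAAGGTCA, which occurred in 0.837% of all promoters. The 4 followers shown were picked for their matches and do not stand for the rest. Of the 16 named followers with the widest differences, 13 had a promoter, of which 5 held the HNF1 letters and 5 the FOXA letters. Aqp8, B4galnt2 and Nostrin, among those 13, had no match to the HNF1, FOXA, CEBP or GATA letters. The letters of different motifs were counted separately where they overlapped. Of 6 opposers with a promoter, 2 held the CEBP letters, 1 the TATA letters and 0 any of the others. A match is a description of the sequence and does not show binding.

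The secreted carriers of yolk-sac endoderm were higher in the Afp-high arrays. Of 12 measured besides Afp, 4 were followers, 6 lay wholly higher and 0 wholly lower, and the median difference was 0.68. Rbp4, which carries retinol from the yolk sac and liver, read 13.59, 13.23, 13.09 and 12.19 in the Afp-high arrays, 12 in the middle array and 11.02, 11.21, 10.37 and 10.21 in the Afp-low arrays. Replicates 5 and 1 changed places against the order of Afp and the other arrays kept it, and the sets lay 0.98 apart at their nearest values, with means of 13.03 ± 0.60 and 10.70 ± 0.49 (SD, n = 4 each). Ttr, the thyroxine and retinol-binding protein carrier transthyretin, read 13.69, 12.81, 12.78 and 10.82, then 11.01 in the middle array, and 10.23, 10.08, 9.43 and 9.26 in the Afp-low arrays. Replicate 7 was the lowest of the Afp-high arrays for Ttr and lay below the middle array. The difference was 2.775, or 6.85-fold, and 2.44 to 2.62 by its other probe sets. Hpx, which binds free haem, differed by 1.96 (5.71 to 6.34 in the Afp-low and 7.58 to 8.55 in the Afp-high arrays), and Clu, a secreted chaperone, by 1.02. Fetub and Afm, also secreted carriers, overlapped between the sets, with differences of 0.485 and 0.19. Alb, the adult plasma carrier that replaces Afp, is named here although it was picked after its value was seen: its means were 5.38 and 5.18.

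Apolipoproteins had some of the widest differences. Of 16 genes of lipoproteins and their assembly, 6 were followers, 0 lay wholly lower, and the median difference was 1.26. Apoa1 read 12.83, 11.66, 11.80 and 8.94 in the Afp-high arrays, 9.82 in the middle array and 7.66, 8.05, 7.59 and 6.96 in the Afp-low arrays. Replicates 4, 8 and 3 were far above the rest, and replicate 7 lay below the middle array but above all Afp-low arrays. The difference was 3.74, or 13.4-fold, and 3.42 to 3.86 by its other probe sets. Apoa2, the second protein of high-density lipoprotein, read 11.74, 10.97, 9.45 and 6.91, then 7.36, then 5.72, 6.56, 5.95 and 6.03. Only 0.35 separated replicate 7 from replicate 1 for Apoa2, although the means differed by 3.70. Apob, the structural protein of chylomicrons and low-density lipoprotein, read 12.02, 11.64, 11.36 and 9.57, then 9.72, then 8.61, 8.41, 8.24 and 6.74. The Apob sets did not overlap and differed by 3.15, but a second Apob probe set differed by only 0.36, and the mean of both by 1.75. Apom differed by 2.78 (6.80 to 7.71 against 8.18 to 11.31) and by 3.24 on its other probe set. Not every apolipoprotein separated the sets: Apoc1, of triglyceride-rich particles, read 8.98 to 11.39 in the Afp-high and 7.80 to 11.42 in the Afp-low arrays, and Pltp, which transfers phospholipid between particles, differed by 0.015. Apoc2, the cofactor of lipoprotein lipase, was singled out after its values were seen: its means were 9.91 and 5.77, but the sets overlapped.

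Uptake receptors and brush-border genes of visceral endoderm leaned the same way more evenly. All 18 measured had a higher mean in the Afp-high arrays, against 7828 of all 18193 genes, with a median difference of 1.31, but only 3 lay wholly higher and 2 were followers. Vil1, the actin-bundling protein of microvilli, read 8.61, 7.95, 7.57 and 6.91 in the Afp-high arrays, 6.89 in the middle array and 6.33, 5.46, 6.17 and 5.89 in the Afp-low arrays. Its sets were separated by 0.58, and the difference was 1.80. Lgmn, a lysosomal protease, differed by 1.575 (9.54 to 10.58 against 10.81 to 12.63). Ctsz, another lysosomal protease, differed by 0.71, and by 0.44 without replicate 4. Dab2, the adaptor of receptor-mediated uptake, read 10.68 to 12.70 in the Afp-high and 8.81 to 10.85 in the Afp-low arrays, an overlap made by replicates 7 and 1. Cubn and Amn, the pair of proteins that form the cubilin receptor, are named after their values were seen: their means differed by 2.95 and 2.465, with overlapping arrays.

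Of 19 genes of clotting, complement and protease inhibition, which visceral endoderm and liver secrete, 2 were followers, 5 lay wholly higher and 0 wholly lower, with a median difference of 0.46. Fgb read 9.33, 8.40, 8.70 and 6.71, then 6.60, then 5.63, 6.22, 5.88 and 5.27. Replicate 7 again was the nearest of the Afp-high arrays to the Afp-low set, and the difference was 2.535. Fga, the alpha chain, differed by 2.01, but by 1.27 without replicate 4, which alone read 7.77 while the other Afp-high arrays read 3.78 to 5.75. The anticoagulant Proc and the clotting factor F10 differed by 0.87 and 0.85, and Serpinf1, an inhibitor-like secreted protein, and Pros1, a cofactor of Proc, overlapped at 0.23 and 0.46. Tfpi, the inhibitor of the tissue factor pathway, is in no list and read 12.30, 11.92, 11.45 and 11.15, then 10.31, then 10.28, 10.04, 9.72 and 9.67. Tfpi stood in the order of Afp in all 9 arrays and differed by 1.78, and by 1.74 to 2.33 on its other probe sets.

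Of 19 transcription factors of endoderm measured, 3 were followers, 4 lay wholly higher and 0 wholly lower, with a median difference of 0.65. Sox7, a factor of primitive and parietal endoderm, read 10.47, 9.24, 8.51 and 7.83 in the Afp-high arrays, 7.86 in the middle array and 7.54, 7.42, 6.89 and 6.46 in the Afp-low arrays. The sets were 0.29 apart and the means 1.94, while a second Sox7 probe set differed by 0.155. Gata4, which is needed for visceral endoderm and heart, read 9.22, 7.96, 7.89 and 7.70, then 7.58, then 7.33, 7.08, 7.43 and 6.77, a difference of 1.04, with 0.16 on its other probe set. Gata6, the factor that commits cells to primitive endoderm, differed by 0.90 (9.66 to 10.51 against 10.97 to 11.36), and by 0.04 to 0.68 on others. Hnf4a, the nuclear receptor that drives apolipoprotein genes, is given no direction: the probe set used differed by 1.29 and its other probe sets by -0.12 to 2.24. Sox17 and Foxa2 overlapped between the sets, with differences of 1.18 and 0.65.

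Of 10 measured genes reported to regulate Afp in liver or yolk sac, 0 were followers and 0 separated the sets in either direction, and the median difference was 0.28. Foxa2 read 8.73 to 10.60 in the Afp-high and 8.40 to 9.70 in the Afp-low arrays, and Cebpb, a CCAAT-binding factor of liver, 9.69 to 10.18 and 9.49 to 9.94. The repressors of Afp after birth, Zhx2 and Zbtb20, are named after their values were seen and differed by -0.07 and 0.155. Among 15 hepatic enzymes 0 separated the sets, with a median of 0.08, and among 18 genes of definitive endoderm and gut 0 did, with a median of -0.015. The epithelial keratins Krt8 and Krt18 differed by 0.135 and 0.25. With 2.84% of all genes wholly higher and 3.29% wholly lower, 0 members in lists of this size is near the share of all genes. These counts hold for the listed genes only and not for liver and gut genes at large. Followers in neither list included Igfbp1 of liver (4.48), Gkn2 of stomach epithelium (4.17) and B4galnt2 of intestinal epithelium (2.72), described below. Ugt2b34 and Fabp2, also followers in neither list and named after their values were seen, differed by 2.48 and 2.04.

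Parietal endoderm genes were higher together with the visceral ones. Of 14 measured, 5 were followers, 6 lay wholly higher and 0 wholly lower, with a median difference of 1.16. Lama1, the laminin chain of Reichert's membrane, read 12.91, 11.75, 11.10 and 10.04, then 9.53, then 9.21, 9.74, 8.57 and 7.85. Only 0.30 lay between replicates 7 and 1, and the difference was 2.61. Col4a1 and Col4a2, the chains of the main type IV collagen, differed by 1.57 and 1.795, and Pth1r, the receptor of parathyroid hormone-related protein on parietal endoderm, by 1.90. Col4a1 read 14.06, 13.09, 12.85 and 12.47, then 11.72, then 11.81, 11.87, 11.43 and 11.09, so that the middle array sat with the Afp-low set. Lamc1 and Fst overlapped, with differences of 1.07 and 0.64.

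**Figure D3:**
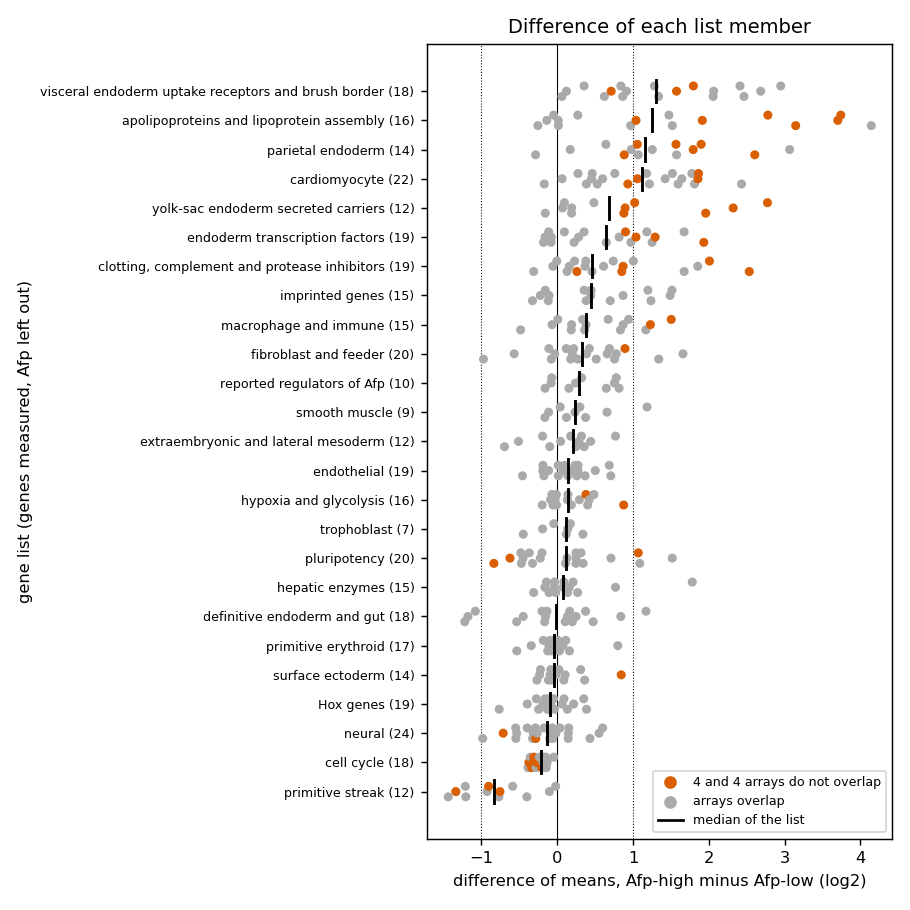
Difference of means, Afp-high minus Afp-low (log2, horizontal axis), of each member of 25 gene lists, with orange points where the 4 and 4 arrays do not overlap and bars at the list medians. The lists of extraembryonic endoderm and the cardiomyocyte list have medians between 0.46 and 1.31, and the primitive streak list has a median of -0.84.

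The largest differences of all belonged in part to genes outside the lists. Igfbp1 read 10.31, 9.89, 8.71 and 7.21 in the Afp-high arrays, 6.32 in the middle array and 4.66, 4.72, 4.35 and 4.47 in the Afp-low arrays. The Afp-low arrays lay close together (SD 0.17), and every Afp-high array was at least 2.49 above them. The difference was 4.48, or 22.3-fold. Gkn2, a secreted gastrokine of stomach epithelium, read 12.12, 10.90, 8.13 and 7.16, then 5.96, then 5.37, 5.37, 5.57 and 5.31. It too was flat in the Afp-low arrays and steep in the Afp-high ones, with SDs of 0.11 and 2.32 and a difference of 4.17. Aqp8, a water channel, read 10.78, 8.90, 7.20 and 6.71, then 6.11, then 5.03 to 5.33, and differed by 3.24. Tff3, a trefoil peptide of mucous epithelia, read 9.71, 9.03, 8.51 and 5.87, then 5.47, then 5.47 to 5.63, so that replicate 7 was only 0.24 above the Afp-low arrays.

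Spp2, a secreted phosphoprotein of liver and bone, differed by 3.14, but its other probe set by 0.065. Rhox5, an X-linked homeobox gene of extraembryonic tissue, read 12.90, 12.19, 11.26 and 10.34, then 9.94, then 9.46, 9.40, 8.55 and 8.05. Its 9 arrays stood in the exact order of Afp, and the difference was 2.81. B4galnt2, a glycosyltransferase of intestinal epithelium, differed by 2.72, with -0.15 to 1.94 on its other probe sets. Nepn, an inhibitor of TGF-beta signalling expressed in embryonic gut, read 9.50, 10.01, 7.96 and 9.20, then 8.81, then 7.73, 5.80, 6.29 and 6.08. Nepn was nearly as high in replicate 7 and in the middle array as in replicate 4. Nostrin, an adaptor that binds endothelial nitric oxide synthase and alters its traffic, read 8.91, 8.18, 6.48 and 5.81, then 5.44, then 4.76, 5.07, 4.44 and 4.68, a difference of 2.61. Nos3 itself, the synthase, differed by 0.01, with 6.82 to 7.20 in the Afp-high and 6.76 to 7.43 in the Afp-low arrays.

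Correlation with Afp over all 9 arrays was ranked among 1346 genes with an SD of 0.5 or more, leaving out predicted genes and clones. The genes that tracked Afp most closely were Rbp4 (Pearson r = 0.983, Spearman rho = 0.983), Tfpi (0.975 and 1), Igfbp1 (0.969 and 0.967), Rhox5 (0.966 and 1) and Hpx (0.965 and 0.933). The lowest coefficients among the 1346 were those of Foxh1, a cofactor of Nodal signalling (-0.922 and -0.933), and Gng3, a neuronal G-protein subunit (-0.915 and -0.90). Next among them came Zic2, a zinc finger factor of neural plate and epiblast (-0.909 and -0.917), Lratd1 (-0.908 and -0.883) and Slc35d3 (-0.90 and -0.917). Without replicates 4 and 6, the arrays farthest from the median Afp, r stayed between 0.946 and 0.971 for the first 5 genes and between -0.909 and -0.846 for the others. These are picks from the extremes of many genes over the ranked arrays, and no p is given. BC064078, an opposer left out as a clone symbol and named after its value was seen, had coefficients of -0.914 and -0.845.

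Most cardiomyocyte genes had a higher mean in the Afp-high arrays, but not in the order of Afp. Of 22 measured, 3 were followers, 4 lay wholly higher and 0 wholly lower, with a median difference of 1.12 and 21 of 22 above 0. Actc1, cardiac actin, read 10.18, 12.29, 10.87 and 12.96 in the Afp-high arrays, 12.03 in the middle array and 10.03, 9.36, 10.02 and 9.46 in the Afp-low arrays. Replicate 7, the lowest of the Afp-high set in Afp, was the highest in Actc1, and replicate 4, the highest in Afp, lay only 0.15 above replicate 5. Myh7, a slow cardiac myosin heavy chain, read 9.60, 11.64, 10.36 and 12.48, then 11.22, then 9.42, 8.79, 9.01 and 9.40, with the same exception. Their differences were 1.86 and 1.865, and their correlations with Afp over the 9 arrays were 0.576 for both. Actn2, the actinin of the Z-disc, and Tnnc1, cardiac troponin C, differed by 1.06 and 0.93, and the atrial and ventricular light chains Myl7 and Myl3 overlapped at 1.645 and 1.425. The list mean was 7.75 to 9.93 in the Afp-high arrays, 8.95 in the middle array and 7.42 to 7.93 in the Afp-low arrays.

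Of 15 macrophage genes, 2 were followers and lay wholly higher (2.84% of all genes did) and the other 13 overlapped between the sets. In 13 of the 15 the difference was above 0, with a median of 0.38, and the list mean, which overlapped, was 5.82 to 6.80 in the Afp-high, 6.23 in the middle and 5.56 to 5.84 in the Afp-low arrays. Csf1r, the receptor that macrophages need to survive, read 8.58, 8.71, 8.54 and 8.94, then 7.88, then 7.35, 7.62, 6.92 and 6.86, a difference of 1.505, with 0.105 to 0.51 on its other probe sets. Fcgr3, an Fc receptor, differed by 1.23 with 0.03 between the sets, while Lyz2 and Laptm5, also of macrophages, overlapped at -0.48 and 0.94. Adgre1 and Itgam, defining surface markers named after their values were seen, had means of 5.39 and 3.77 in the Afp-high and 5.20 and 3.76 in the Afp-low arrays. Of the fibroblast and feeder list, 1 of 20 lay wholly higher (Pdgfra, a receptor also made by primitive endoderm, at 0.895), and its list mean was 9.36 to 10.32 and 8.73 to 10.16. The part of these other cell types in the differences above was not tested.

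**Figure D4:**
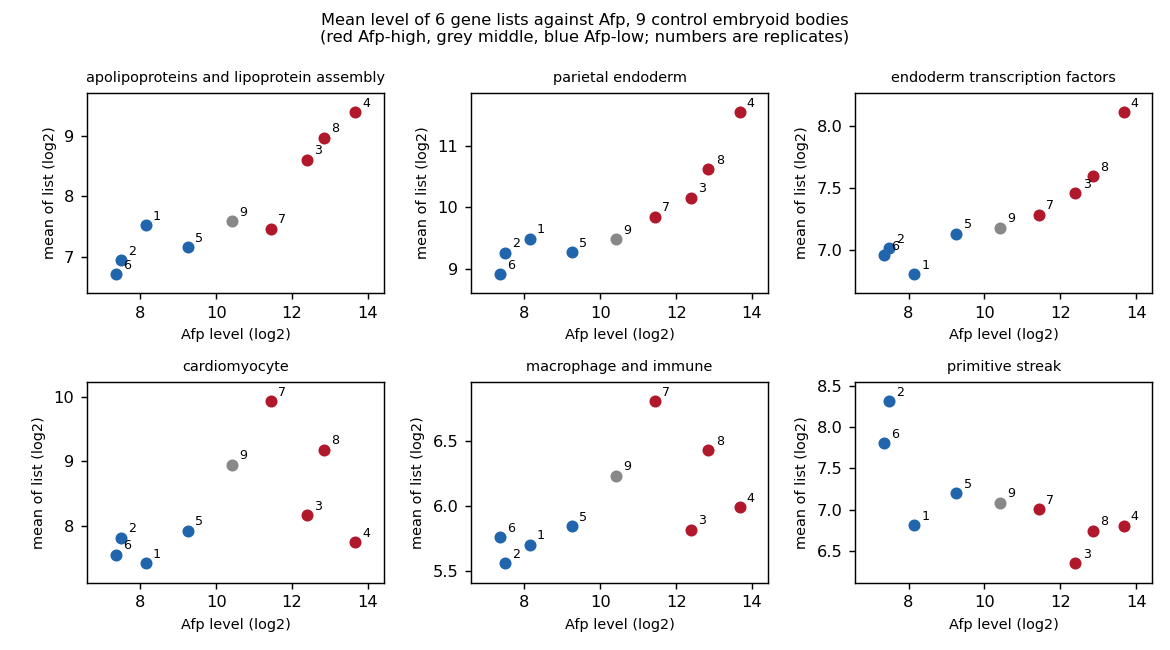
Mean level of 6 gene lists (log2, vertical axes) against Afp (log2, horizontal axes) in the 9 control embryoid bodies, coloured by set and numbered by replicate. The parietal endoderm mean falls in the order of Afp across the 4 Afp-high arrays (11.54 to 9.85), the cardiomyocyte and macrophage means are highest in replicate 7, and the primitive streak mean is highest in replicates 2 and 6.

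Genes of the primitive streak, the site where mesoderm and endoderm arise, had lower means in the Afp-high arrays, with most members overlapping. All 12 measured had a difference below 0, with a median of -0.84; 3 lay wholly lower and 1 was an opposer. Fgf8, a growth factor needed for cells to leave the streak, read 7.64, 7.31, 6.46 and 7.73 in the Afp-high arrays, 8.01 in the middle array and 8.15, 7.89, 9.36 and 9.09 in the Afp-low arrays. Replicates 2 and 6 were well above the others, and only 0.16 lay between the sets, whose means differed by -1.34. Evx1, a homeobox gene of the streak, and Nodal, the ligand that induces it, differed by -0.905 and -0.755 without overlap. Eomes and Lhx1, T-box and LIM factors of streak and endoderm, differed by -1.21 and -1.205 but overlapped: Lhx1 read 8.14, 7.42, 10.55 and 10.03 in the Afp-low and 7.10 to 8.41 in the Afp-high arrays. The lower streak mean in the Afp-high arrays (6.35 to 7.01, against 6.82 to 8.31) thus rested mainly on replicates 2 and 6.

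The other named opposers came from several tissues. BC064078, a clone symbol named after its value was seen, had the widest difference of the 9 opposers, -1.505, and -0.60 on its other probe set. Ugt8a, which makes the galactolipid of myelin, read 4.74, 6.05, 6.40 and 5.96, then 6.37, then 6.59, 7.77, 7.21 and 7.43, a difference of -1.46. Zic2 read 7.44, 7.63, 7.60 and 8.26, then 8.46, then 8.70, 8.28, 9.59 and 9.25, with only 0.02 between the sets and a difference of -1.22. Slc35d3, a nucleotide sugar transporter family member, differed by -1.33, Ms4a4d, a membrane protein, by -1.30, and Vstm2b, also of the membrane, by -1.245. Psmb8, a subunit of the immunoproteasome, and Tlcd3b, of the ceramide synthase-like family, differed by -1.11 and -1.095. Other probe sets of Ugt8a, Vstm2b, Psmb8 and Tlcd3b differed by -0.31 to 0.08, so these calls rest on 1 probe set each. Genes wholly lower by less than 1 included Enpp3, Gng3, Evx1os, an antisense RNA beside Evx1, and the neuronal tubulin regulator Stmn2, at -0.97, -0.93, -0.93 and -0.71.

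Pluripotency genes did not move as a list: of 20 measured, 1 lay wholly higher and 2 wholly lower, and the median was 0.12. Pou5f1, the central pluripotency factor, read 10.83, 11.38, 11.56 and 11.78, then 11.33, then 11.88, 12.13, 11.88 and 12.15. All 4 Afp-low arrays were above all Afp-high arrays, by 0.10 at the nearest values, and the difference was -0.62. Tdgf1, the Nodal coreceptor, differed by -0.835, while Tfcp2l1, a naive-state factor also made by epithelia, differed by 1.07 but by 0.06 to 0.14 on its other probe sets. Cell cycle genes were slightly lower: 0 of 18 had a difference above 0, against 7828 of all 18193 genes, and the median was -0.22. Of the 18, 6 lay wholly lower, a larger share than the 3.29% of all genes. The helicase subunits Mcm6, Mcm5 and Mcm2 and the checkpoint kinase Bub1 differed by -0.34, -0.32, -0.31 and -0.37. In the neural list 2 of 24 lay wholly lower (Stmn2 and Neurog2), against 3.29% of all genes, with a median of -0.14.

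The remaining lists had medians between -0.10 and 0.44. Primitive erythroid, endothelial, smooth muscle, extraembryonic mesoderm, trophoblast, imprinted and Hox genes had 0 members that separated the sets. Of all genes 2.84% lay wholly higher and 3.29% wholly lower, so 0 members in lists of this size is near that share. Among the 15 imprinted genes 10 had a difference above 0, with a median of 0.44. Trp63, a factor of surface ectoderm, and Ndrg1 and Ankrd37, of the hypoxia response, lay wholly higher by 0.845, 0.88 and 0.38. Among imprinted genes, the maternally expressed noncoding RNA Rian, which has its own split between arrays, read 13, 13.19, 13.03 and 8.82 in the Afp-high, 9.48 in the middle and 13.01, 6.21, 9.73 and 13.03 in the Afp-low arrays. Both sets held high and low Rian arrays, so its split did not coincide with that of Afp.

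The middle array was not used to define followers, although it was ranked. It lay between the means of the sets for 90 of 101 followers, and in the gap between the nearest values of the sets for 44. Of the 9 opposers, 8 and 3 did so. Followers were chosen for a gap and a wide difference, which leaves room for an array between the sets, so these counts have no like share over all genes. The followers with other probe sets can be read again in the same RNA: 41 genes had 72 such probe sets, of which 61 differed in the direction of the gene and 35 by 1 or more, and in 31 genes all of them had that direction. These probe sets were read in the same ranked arrays that chose the followers, and no like share over all genes was computed. The counts are therefore a description and no independent support.

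The sets were also read against the pluripotent cells. The mean of the Afp-low arrays lay within the range of the 10 control day 0 arrays for 62 of 101 followers (61.4%, against 71.9% of all genes), above it for 19 (18.8%, against 13.5%) and below it for 20 (19.8%, against 14.6%). For 51 followers all 4 Afp-high arrays lay above all 10 (50.5%, against 6.26%), a share that the choice of followers as high in these arrays favours. Igfbp1 read 3.83 to 4.29 and Gkn2 4.87 to 7.20 at day 0, against Afp-low means of 4.55 and 5.405. Control day 0 replicate 5, the only day 0 array with raised Afp, was the highest of the 10 for 48 followers (47.5%), whereas it was the highest for 10.7% of all genes. The next array was the highest for 11 followers (10.9%). In replicate 5 Apob read 8.72, where the others read up to 5.21, and Ttr read 8.91, where the others read up to 7.08. Rhox5 and Nostrin were also highest there, at 12.3 and 8.15.

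In Nos3-/- embryoid bodies, which have little Afp, the mean of the 6 arrays lay below the Afp-low mean for 55 of 101 followers (54.5%), near the 53.7% of all genes. It lay between the set means for 44 followers and above the Afp-high mean for 2. The counts between and above have no like share over all genes, because followers were chosen for a higher mean in the Afp-high arrays. Rbp4 read 6.87 to 9.45 with a median of 8.445, below all 9 control embryoid bodies. Igfbp1 read 3.99 to 4.33, Gkn2 5.15 to 5.75 and Apoa1 5.67 to 7.82. Rhox5 differed from these, with 8.61 to 12.27 and a median of 10.88, so that it spanned both control sets, and Apoa2 read 7.25 to 8.62, above all Afp-low control arrays. Both genes had such levels already in the Nos3-/- day 0 arrays, with Rhox5 at 8.22 to 13.01 and Apoa2 at 7.31 to 9.66. In the control day 0 arrays they read 7.73 to 12.3 and 5.08 to 6.45.

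The change from day 0 to day 11 was tested in the 12 Nos3-/- arrays with limma, and a gene passed where its p, adjusted over all genes by Benjamini-Hochberg, was under 0.05. In all, 1578 genes (8.67%) rose and 2101 (11.5%) fell, so that 42.9% of the calls were rises, and 31.0% with each array centred on its median. The median change of all genes was -0.06, and -0.11 after that centring. Of the followers 22 rose (21.8%), 12 fell (11.9%) and 67 did not pass, with a median change of 0.20. The share that rose was thus above that of all genes and the share that fell near it. Without Nos3-/- day 11 replicate 3, which was the lowest of the 6 in Afp, 39 followers rose. The rises over all genes grew as well in that fit, to 2175 of 18194. Over all genes the rises and falls numbered 977 and 1303 without Nos3-/- day 11 replicate 1, and 1007 and 1280 without replicate 2.

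Afp itself was 5.12 ± 0.24 at day 0 and 6.50 ± 1.03 at day 11 in Nos3-/- cells (SD, n = 6 each), a rise of 1.38 (standard error 0.39, limma adjusted p = 0.0279). Apob rose from 4.65 ± 0.25 to 7.25 ± 1.32, by 2.60 (standard error 0.49, limma adjusted p = 0.00422). Its 6 embryoid bodies read 7.46, 8.62, 4.77, 7.59, 7.10 and 7.98, so that replicate 3 stayed in the day 0 range of 4.26 to 4.94. Ttr rose by 1.85 (limma adjusted p = 0.0178), and again replicate 3, at 6.50, lay within the day 0 range of 6.41 to 7.03 while the others read 8.11 to 10.02. Apoa1 rose by 1.16 (limma adjusted p = 0.0208), a call lost without Nos3-/- day 11 replicate 2 (limma adjusted p = 0.0512), with the replicate block (limma adjusted p = 0.0516) and with the spread of all 31 arrays (limma adjusted p = 0.203). Apom rose by 0.56 and B4galnt2 by 1.27, calls that were lost only with the spread of all 31 arrays (limma adjusted p = 0.422 and 0.0968). Gata4 rose by 1.305 (limma adjusted p = 0.00953).

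The sarcomere followers also rose. Actc1 went from 6.475 ± 0.50 to 10.04 ± 2.21, a rise of 3.56 (limma adjusted p = 0.0118), Myh7 rose by 2.99 (limma adjusted p = 0.0182) and Actn2 by 0.86 (limma adjusted p = 0.00574). Of the 22 genes of the cardiomyocyte list 12 rose and 0 fell. The 5 followers with the widest differences in control cells did not share a change: Apoa1 rose (above), while Igfbp1 changed by 0.135, Gkn2 by 0.18, Apoa2 by -1.02 and Aqp8 by 0.27, none of which passed with limma. Fcgr3 fell by 3.05 (limma adjusted p = 0.000129), and 11 of 15 macrophage genes and 12 of 20 fibroblast and feeder genes fell. The day 0 cells were grown on feeders, whose part in these falls was not tested. Of the 9 opposers, Slc35d3 rose by 1.06 and Ugt8a and Psmb8 fell by 0.80 and 1.56, while 6 did not pass; the calls of Slc35d3 and Ugt8a were lost under 4 and 1 of the alternatives.

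**Figure D5:**
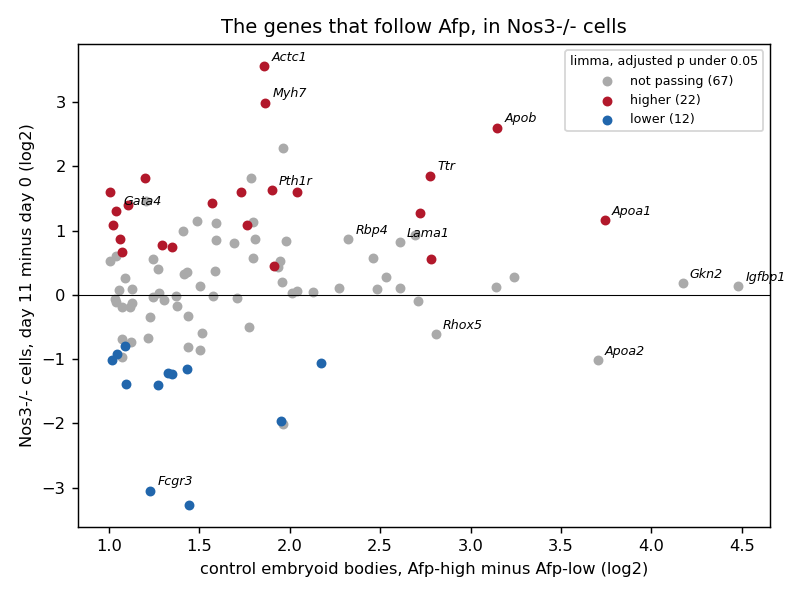
Change from day 0 to day 11 in Nos3-/- cells (log2, vertical axis) against the difference between Afp-high and Afp-low control embryoid bodies (log2, horizontal axis) for the 101 followers, coloured by the limma call. Apob, Ttr and Apoa1 rose, whereas Igfbp1 and Gkn2, with the widest differences in control cells, lie near 0.

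The slope of each gene on Afp was tested among the 6 Nos3-/- embryoid bodies, where Afp ran from 5.16 to 7.84. With limma, 0 genes passed after Benjamini-Hochberg adjustment (lowest adjusted p = 0.451). At an unadjusted p under 0.05, 1125 genes (6.18%) had a positive and 803 (4.41%) a negative slope, and among followers 18 (17.8%) and 4 (3.96%) did. In all, 76 of 101 followers had a positive slope (75.2%, against 53.4% of all genes), with a median of 0.13 per log2 unit of Afp against 0.01. This rested on replicate 3, the embryoid body with the least Afp: without it 53 of 101 followers had a positive slope and their median was 0.02, against 0.01 over all genes. In that fit 9 of the 101 followers had a positive slope at an unadjusted p under 0.05 with limma, against 723 of 18193 genes. In replicate 3 the pluripotency list also had its lowest mean of the 6, 8.24 against 9.86 to 11.19, and the cardiomyocyte list its lowest, 6.17 against 7.08 to 9.17.

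Named followers with positive slopes included Rhox5, Lama1, Apoa2 and Tfpi, at 0.96, 0.78, 0.42 and 0.51 per log2 unit of Afp, none of which passed after adjustment. Rhox5 read 11.23, 10.53, 8.61, 12.27, 11.57 and 10.52 in replicates 1 to 6, highest and lowest in the same replicates as Afp. In the Nos3-/- day 0 arrays, however, Rhox5 read 8.22 to 13.01 while Afp was 4.81 to 5.51, so a high Rhox5 level there came without raised Afp. Igfbp1 had a slope of -0.05 and Nepn of 0.02. Without Nos3-/- day 11 replicate 1, 148 genes passed with a positive and 28 with a negative slope, 6 of them followers, in a fit of 5 arrays. Of the 9 opposers, 3 had a negative slope. All 20 pluripotency genes had a positive slope on Afp in these arrays, with a median of 0.915, whereas in the control embryoid bodies that list had a median difference of 0.12. The difference between genotypes in these slopes was not tested.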

How the data were processed

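RNA of 31 samples was labelled as biotinylated cRNA and hybridised to Affymetrix arrays, per the labels. The authors deposited 1 table of log2 intensities for 45101 probe sets, summarised by RMA per the submitters' processing notes; its version and the batches or scan dates are not given in the sources used here. Values ran from 2.32 to 15.01, 0 array pairs were identical, and no further normalization was applied. Of the probe sets, 34958 had 1 gene symbol in the platform annotation and 932 with several or 9211 with none were left unnamed. For 9012 of the 18194 genes several probe sets existed, and the one with the highest mean over all arrays was used.

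The 9 control embryoid bodies were ranked by Afp and the 4 highest and 4 lowest described without a test. Fits on arrays outside the ranking used limma 3.58.1 (R 4.3.3; lmFit, eBayes) over all genes with Benjamini-Hochberg adjustment: day 11 minus day 0 in the 12 Nos3-/- arrays, and the slope on Afp in the 6 Nos3-/- embryoid bodies. Both fits were also run on data simulated with independent noise, and the outcome is not used for any result here. Tables and figures were made with Python 3.11.15, pandas 2.3.3, numpy 2.4.6, scipy 1.17.1 and matplotlib 3.10.9.

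The genes named are Afp, the 16 highest and 12 lowest differences without overlap, up to 4 separating and 2 overlapping members of each list, and the 5 highest and 5 lowest correlations with Afp, leaving out predicted genes and clones; others are named as picked after their values were seen. The members, lists and tests were chosen with earlier results of these data known. Alternatives were other normalization, level filter, probe set choice, ranking, array weights, the replicate block, the arrays in the fit, and each array left out. Promoters came from RefSeq (GRCm38.p6), and 14453 genes had one.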

Additional observations from a re-analysis of the deposited data

Results flagged for a closer look

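In 116 groups of named genes and samples, 17 single arrays lay far from the rest of their group. Distance was measured by the gap to the nearest array as a share of the group's range. The rule is set to flag about 1 in 20 independent groups. These groups share arrays, and their genes were picked by their differences between the Afp sets, so the 17 cannot be set against that rate. Control day 0 replicate 5 accounted for 9 of them, in each case as the highest of 10 pluripotent arrays. It read 6.38 for Afp, where the next array read 5.42, 7.2 for Gkn2 (next 5.71), 6.86 for Apoa1 (next 6.17) and 8.72 for Apob (next 5.21). The same array read 12.3 for Rhox5 (next 10.0), 6.99 for Apom (next 6.38), 8.91 for Ttr (next 7.08), 7.65 for B4galnt2 (next 5.94) and 8.15 for Nostrin (next 5.38).

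Nos3-/- day 11 replicate 3, the embryoid body with the lowest Afp of its group, stood apart for 5 genes. It was the lowest for Apoa1 at 5.67, B4galnt2 at 5.52, Lama1 at 5.45 and Tlcd3b at 6.02, and the highest for Lratd1 at 7.94. Tff3 was highest in replicate 5 of both Nos3-/- groups, at 5.73 at day 0 and 5.62 at day 11, and Zic2 was lowest in Nos3-/- day 0 replicate 5, at 7.6.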

How the results depend on the processing

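Quantile normalization left 101 followers, 99 of them shared, centring 98, a level filter 72, the mean of all probe sets 85, and leaving out _x_at and _s_at probe sets 97; 14 followers were called under every setting other than the rankings by the 2 flat Afp probe sets. With the 3 highest against the 3 lowest arrays 260 genes followed and 37 opposed. With the middle array among the lower 55 followed, and with it among the higher 2 opposed. Leaving out 1 control array gave 91 to 208 followers and 7 to 35 opposers.

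Ranking by the flat probe set 1436880_at gave 3 followers and 3 opposers, and by 1436881_x_at 15 and 4, with 0 shared in each case. Under 1436880_at the differences became 0.72 for Fgf8, 0.115 for Slc35d3, 0.47 for Vstm2b, 0.22 for Zic2, 0.23 for Psmb8, 0.325 for Tlcd3b, 0.26 for Lratd1, 0.015 for Gng3, 0.185 for Evx1os, 0.24 for Evx1, 0.0575 for Foxh1, 0.025 for Mcm6 and 0.065 for Mcm5, and -0.0875 for Gata6, -0.035 for Myh7, -0.085 for Actc1, -0.12 for Tnnc1, -0.31 for Tfcp2l1 and -0.08 for Csf1r. Under 1436881_x_at they became 0.28 for Ms4a4d, 0.0375 for Psmb8 and 0.0675 for Tlcd3b. These arrays are other sets by construction. Without _x_at and _s_at probe sets the Hnf4a difference was -0.12 and its time change -0.0217; the cause was not tested.

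In Nos3-/- cells, array weights gave 2789 rises, 3601 falls, 43 rising followers and 2 rising opposers, and the spread of all 31 arrays 3299 falls and 1 falling opposer. With the level filter 0 opposers rose. Leaving out 1 array gave 977 to 2175 rises, 1280 to 2597 falls, 15 to 39 rising followers and 0 to 2 rising opposers. With centring 1343 genes rose and 2986 fell. A slope over all 15 day 11 arrays with a mean per genotype includes the ranked arrays, so its values for followers and opposers were set by their selection and support nothing: 189 genes upward and 24 downward, 70 followers, and 9 opposers negative. For the slope in the 6 Nos3-/- embryoid bodies, leaving out 1 array gave 0 to 148 genes upward, 0 to 28 downward and 0 to 6 followers. The cause of these shifts was not tested. Over the named genes, 2349 time changes kept their side of the threshold, 66 gained and 65 lost the call.

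With the replicate block 1501 genes rose and 2186 fell, 23 followers rose, and the call of Apoa1 was lost (limma adjusted p = 0.0516). Same-numbered Nos3-/- arrays correlated in their deviations at 0.098, 0.031, 0.156, -0.021, 0.289 and 0.071, so the numbers were not taken to pair the samples.

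The number of arrays and the unknown separation of cultures limit every value. No detection calls were used, so a level near the lowest array values is not known to be above background.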
